A study of Mus musculus with 4 samples.

Results

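Interleukins are secreted proteins that carry signals between leukocytes and tissue cells, and interleukin receptors are the membrane chains that read them. The genes examined here are the 83 mouse protein-coding genes whose symbol is Il followed directly by a digit, out of 20923 protein-coding genes with curated RefSeq transcripts. The rule uses the name alone, but it was set with earlier results of these data known. The genes comprise 37 ligands, 41 receptor chains and 5 further genes. The receptor chains include the decoys Il1r2, Il13ra2 and Il22ra2, which bind a ligand without passing on a signal. The further genes are the receptor antagonists Il1rn and Il1f5 (an older symbol of Il36rn), the binding protein Il18bp, and Il4i1 and Il4i1b, which encode an IL-4-induced enzyme and overlap each other in the genome.

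Alveolar macrophages (AMs) live in the lung airspaces, where they clear particles and surfactant. They came from wild-type C57BL/6J mice aged 9 weeks and were obtained by bronchoalveolar lavage and sorting. Binding of SMAD4, the common partner of the SMAD proteins activated by TGFβ receptors, was profiled by HT-ChIPmentation, in which Tn5 adds sequencing adapters to chromatin that is still bound to the antibody beads. There were 2 immunoprecipitated libraries, replicates 1 and 2, and 2 inputs, all of the same cell type, with no treatment, genotype or other condition to compare. Nothing in the sources states whether the replicates came from separate mice, so their spread may be technical.

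Interleukin families are grouped by receptor chain. IL-1 family receptors signal through MYD88 and IRAK kinases, whereas many of the other interleukin receptors signal through JAK kinases and STAT factors. SMAD4 acts together with other transcription factors at enhancers, and TGFβ is known as a signal that AMs need for their identity. Whether SMAD4 occupies the genes by which these cells send or receive interleukin signals is the question that the counts below address.

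The deposited lists held 16369 peaks in replicate 1 and 19015 in replicate 2. A peak's fold is the number of fragments stacked at its summit over the control level, each plus 1. A shared region is a merged interval in which peaks of both lists overlap by at least 1 bp, and there were 10964. Each region was counted for a gene if a transcription start site (TSS) of that gene was the nearest to the region's summit, or if the summit lay within 50 kb of such a TSS. Marker genes of cell types only describe where regions lie, since binding near a gene is not expression. Their list was chosen with earlier results of these data known, so it is no check of the cell type. All 12 AM marker genes examined had a shared region by either rule, against 39.5% of all protein-coding genes. By the nearest rule 11 of the 12 had one, against 21.5%. Folds of the strongest region were 45.8 and 65.4 at Chil3 and 33.8 and 49.6 at Pparg. They were only 8.13 and 5.42 at Ear2 and 6.18 and 8.12 at Cidec. Among markers of other cells, a region was found by either rule at 1 of 4 T cell genes and 1 of 3 B cell genes. Regions were also found at 1 of 3 epithelial genes (Scgb1a1) and 2 of 3 neutrophil genes (S100a8 and Elane). The strongest at S100a8, 87 bp upstream of its TSS, had folds of 13.65 and 30.7. That at Scgb1a1, 76 bp upstream, had 7.48 and 11.3. The part of other cells in the results was not tested. In bulk material the share of cells with binding and the occupancy per cell cannot be told apart.

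The strongest interleukin regions are printed here to show the bases under their summits. Each is the 151 bases centred on the summit, on the plus strand of mm10, named by the interleukin gene and the distance of the summit from its TSS. Capitals mark matches to the short strings that are described further on.

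Il23r, 40887 bp upstream, chr6:67532667-67532817: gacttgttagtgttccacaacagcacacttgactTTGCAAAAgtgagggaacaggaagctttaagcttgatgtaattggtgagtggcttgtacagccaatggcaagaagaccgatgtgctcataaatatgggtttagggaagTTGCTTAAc
Il6, 64728 bp upstream, chr5:29948311-29948461: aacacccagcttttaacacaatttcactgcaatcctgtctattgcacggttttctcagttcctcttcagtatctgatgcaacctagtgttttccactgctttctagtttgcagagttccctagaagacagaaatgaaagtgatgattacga
Il15, 18984 bp downstream, chr8:82383527-82383677: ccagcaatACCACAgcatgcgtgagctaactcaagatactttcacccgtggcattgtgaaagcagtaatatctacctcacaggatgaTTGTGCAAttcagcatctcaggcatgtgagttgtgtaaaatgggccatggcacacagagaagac
Il1f10, 20683 bp downstream, and Il1rn, 24981 bp upstream, chr2:24311804-24311954: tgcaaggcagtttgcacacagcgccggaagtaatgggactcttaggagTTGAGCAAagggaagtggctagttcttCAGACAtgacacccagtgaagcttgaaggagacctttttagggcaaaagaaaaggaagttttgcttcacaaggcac
Il6ra, 7490 bp downstream, chr3:89905631-89905781: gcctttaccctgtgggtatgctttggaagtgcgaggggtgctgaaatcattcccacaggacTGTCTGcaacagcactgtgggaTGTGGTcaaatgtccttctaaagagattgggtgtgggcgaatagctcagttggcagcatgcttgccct
Il17ra, 16261 bp downstream, chr6:120479383-120479533: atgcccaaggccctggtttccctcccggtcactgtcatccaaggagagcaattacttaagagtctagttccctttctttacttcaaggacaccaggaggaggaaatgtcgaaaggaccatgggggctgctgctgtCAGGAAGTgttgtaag

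Of the 83 genes, 41 had at least 1 shared region by either rule (49.4%, exact 95% interval 38.2 to 60.6). Among all protein-coding genes the share was 39.5%. All 41 had a region within 50 kb, for which the background was 37.5%. A shared region had the interleukin gene as its nearest gene in 27 of 83 cases (32.5%, 22.7 to 43.7), against 21.5% of protein-coding genes. The lower bounds of these intervals lay on either side of the background, below it for the either rule and above it for the nearest rule. Intervals cover counting error only, and neighbouring genes can share a region, so no test was made.

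The lists of each replicate gave the same order. In replicate 1, 44 genes (53.0%) had a peak by either rule, against 47.8% of all protein-coding genes. In replicate 2, 53 genes (63.9%) did, against 54.5%. The mean share was 58.4% ± 7.67 (SD, n = 2) for the interleukin genes and 51.2% ± 4.73 for all protein-coding genes. Both shares come from the same lists and move with their length. Within a list, the share of interleukin genes was higher by 5.18 points in replicate 1 and by 9.34 points in replicate 2.

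Receptor genes had shared regions more often than ligand genes. By either rule these were 22 of 41 receptors (53.7%, exact 95% interval 37.4 to 69.3) and 15 of 37 ligands (40.5%, 24.8 to 57.9). With the nearest rule they were 17 receptors (41.5%, 26.3 to 57.9) and 9 ligands (24.3%, 11.8 to 41.2). The intervals of the classes overlapped under both rules. The share of ligands was close to the backgrounds of 39.5% and 21.5%, and that of receptors lay above them.

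The direction was the same in each replicate. By either rule, 58.5% of receptors and 43.2% of ligands had a peak in replicate 1, and 70.7% and 51.4% in replicate 2. The receptor share exceeded the ligand share by 15.3 points in replicate 1 and by 19.4 points in replicate 2, and by 13.1 points in shared regions. Because the genes of a class are not replicates, these are descriptions of the lists and carry no p-value.

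**Figure D1:**
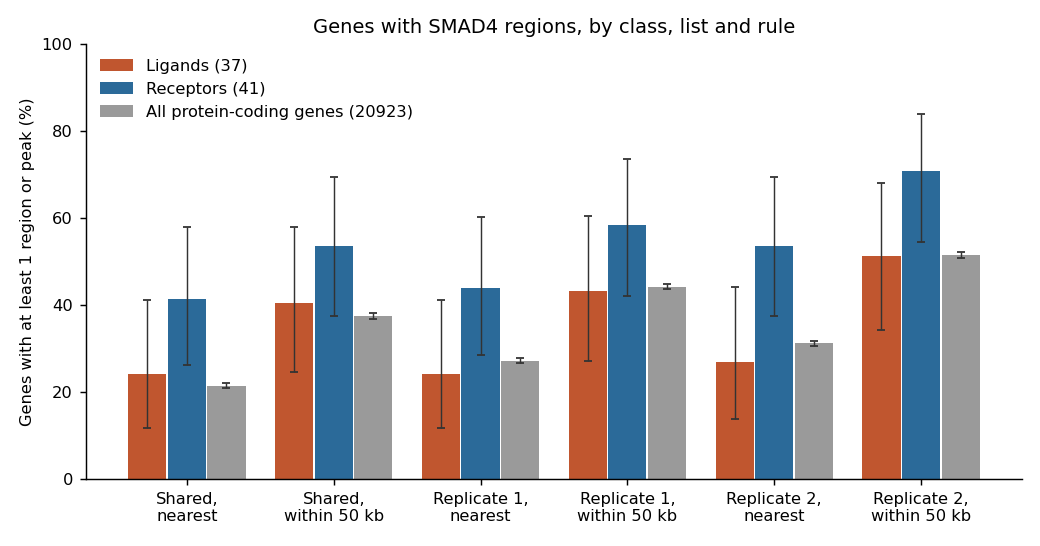
Share of ligand genes (37), receptor genes (41) and all protein-coding genes (20923) with at least 1 shared region or peak, for each list and rule, in percent with exact 95% binomial intervals as error bars. In all 6 settings the receptor bar stands above the ligand bar and their intervals overlap.

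Gene size moved with this difference. Receptor genes had a median length of 30142 bp and ligand genes 6562 bp. The stretch of genome in which a gene's TSS is the closest had a median of 67606 bp at receptors and 44940 bp at ligands. Per Mb of such sequence, ligands had 8.76 shared regions and receptors 7.34, the opposite order. These values lean on a few very wide genes. Il1rapl1 and Il1rapl2 held 1202280 and 544627 bp of the receptors' 5.039 Mb and had no shared region. Il15 held 715792 bp of the ligands' 2.854 Mb and had 5. The order without such genes was not computed. Within the merged 50 kb windows, ligands had 10.6 distinct regions per Mb and receptors 11.5, against 7.03 for all protein-coding genes. Among genes with less than the median stretch of 56214 bp, 10 of 23 ligands and 7 of 16 receptors had a region by either rule. Among those with more, 5 of 14 ligands and 15 of 25 receptors did. The receptors' higher share was thus found in genes with wide surroundings, and the part of gene size in it was not tested.

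The size of the window also mattered. Within 5 kb of a TSS, 7 of 37 ligands (18.9%) and 8 of 41 receptors (19.5%) had a shared region, against 9.99% of all protein-coding genes. Within 200 kb the order turned, with 33 ligands (89.2%) and 31 receptors (75.6%), against 71.1% of all protein-coding genes. The receptors that still lacked a region at that distance included Il1rapl1 and Il1rapl2, whose closest regions lay 2287760 bp and 1822184 bp away.

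**Figure D2:**
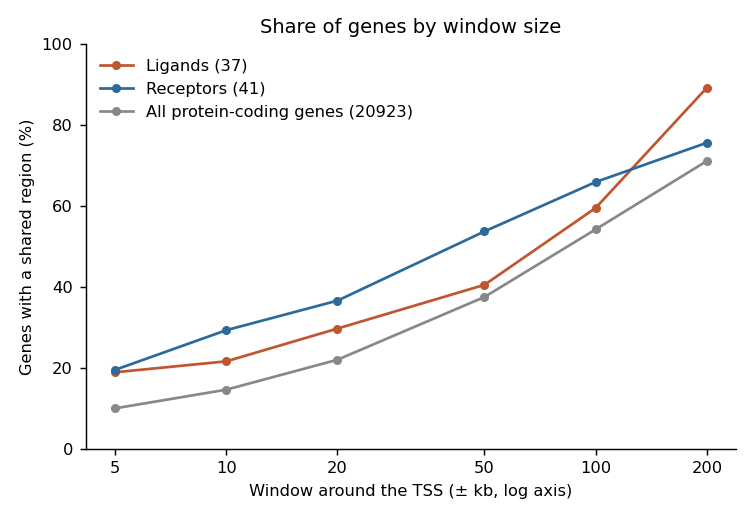
Share of ligand genes, receptor genes and all protein-coding genes with a shared region within a given distance of a TSS (x axis, kb on a log scale; y axis, percent). Receptors lie above ligands from 5 to 100 kb and below them at 200 kb, and both lie above the line of all protein-coding genes throughout.

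In all, 87 distinct shared regions were counted for the interleukin genes. Of these, 65 had an interleukin gene as the nearest gene and 22 were only within 50 kb, with another gene closer. Ligands accounted for 37 regions and receptors for 47, with no region counted for both. Regions counted for 2 or more genes numbered 13, since many interleukin genes lie next to each other. When genes within 200 kb of each other were joined, they formed 58 loci, and 27 of these (46.6%) had a region. No such share was computed for all protein-coding genes, so it cannot be said to lie above or below a background.

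Regions at interleukin genes were of ordinary strength. Their median fold was 6.50 in replicate 1 and 9.02 in replicate 2, compared with 6.83 and 9.48 over all shared regions. The median number of fragments at the summit was 19 in both replicates, so that single folds rest on few fragments. Only 8 of the 87 (9.20%) were among the strongest 10% of all shared regions. Median folds were 6.86 and 9.93 at ligands and 6.50 and 7.95 at receptors, with wide overlap. The fold was higher in replicate 2 at 72 of the 87 regions (82.8%), as at 87.2% of all shared regions, and the background control level of that replicate was lower, 1.22 against 2.08 fragments.

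**Figure D3:**
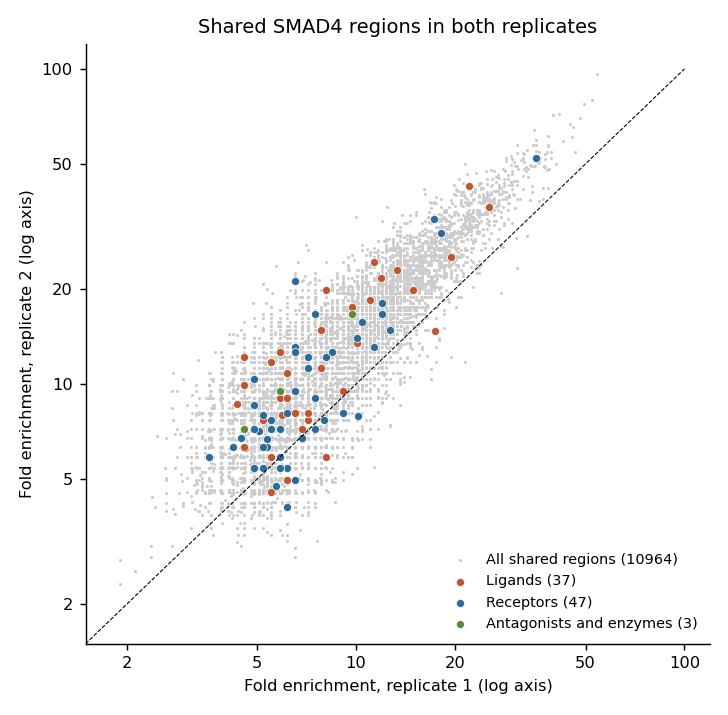
Fold enrichment in replicate 1 (x axis) and replicate 2 (y axis), both on log scales, for all 10964 shared regions in grey and for the 87 regions at interleukin genes in colour, with the line of equal folds dashed. The interleukin regions spread over the range of the grey points, and 72 of them lie above the line.

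By genomic feature, 39 of the 87 regions were intronic (44.8%, against 49.3% of all shared regions) and 33 were intergenic (37.9%, against 40.5%). Promoters, taken from 1 kb upstream to 100 bp downstream of a TSS, held 10 (11.5%, against 6.42%). Only 5 of these were in the promoter of an interleukin gene itself. Cidec, Mcm3, Snai3 and Nck1 were among the neighbours whose promoters held the others.

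Of the 41 genes with a region, the strongest stood at Il23r, which encodes the specific chain of the IL-23 receptor. Its fold was 35.4 in replicate 1 (108 fragments) and 52.3 in replicate 2 (115 fragments), within the strongest 0.347% of all shared regions. The region spans chr6:67532328-67533121 in intergenic sequence and was counted by the 50 kb rule alone. It was the single shared region counted for Il23r, and it stood apart from those of every other receptor, of which the next strongest by the smaller fold, at Il6ra, had 18.2 and 30.2. Il12rb2, the neighbour that encodes an IL-12 receptor chain, lay 156554 bp from it and had only peaks of replicate 2, with folds of 4.51 and 5.42.

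Il6, the gene of a major inflammatory cytokine, had the second strongest region by the smaller fold, with folds of 25.4 (84 fragments) and 36.4 (86 fragments). It lies at chr5:29947968-29948838, 64728 bp upstream of the TSS, and was counted by the nearest rule alone. A second region 62574 bp upstream had folds of 9.10 and 9.48, and another, in an exon of Il6 1721 bp downstream of the TSS, had 5.97 and 7.95. The distal region of Il6 thus had the higher folds in both replicates.

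Il15, whose product supports natural killer and memory T cells, had 5 shared regions, all intronic. The strongest, at chr8:82383052-82383930 and 18984 bp downstream of the TSS, had folds of 22.1 (67 fragments) and 42.4 (93 fragments). The other 4 lay between 1232 and 3884 bp downstream, with folds from 4.55 to 6.86 in replicate 1 and from 4.96 to 7.67 in replicate 2. The gene of the receptor chain that presents IL-15, Il15ra, had 1 region, 34032 bp downstream of a TSS, with folds of 8.45 and 12.6.

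**Figure D4:**
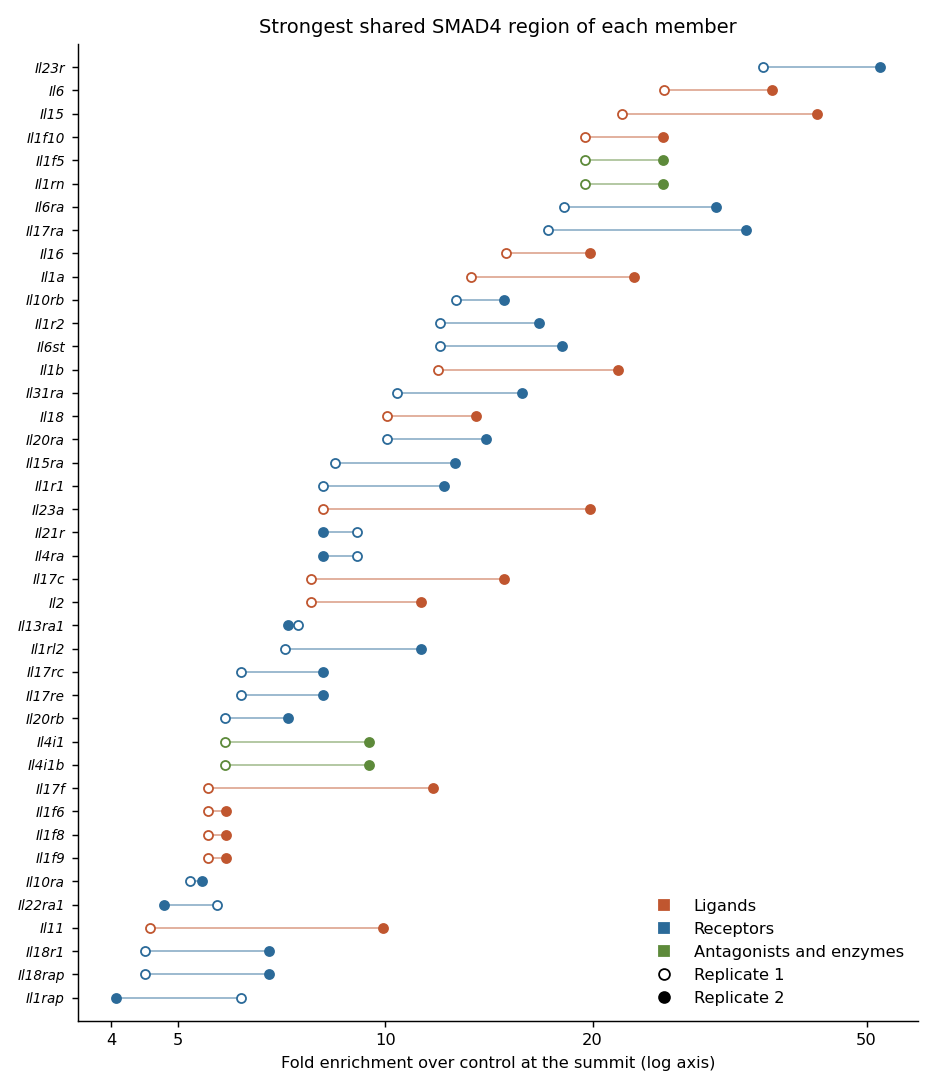
Fold enrichment (x axis, log scale) of the strongest shared region of each of the 41 interleukin genes with one, in replicate 1 (open circles) and replicate 2 (filled circles), ordered by the smaller fold and coloured by class. Il23r is highest at 35.4 and 52.3, and Il1rap is lowest with 6.18 and 4.06.

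The IL-1 family had the most genes with regions, 15 of 20 by either rule, with 28 distinct regions. By the nearest rule 10 had one. The shares of all protein-coding genes were 39.5% and 21.5%. Most of the 15 genes stand in clusters on chromosomes 1 and 2, where a region can count for several genes. They are therefore not separate observations. Of the IL-1 family genes classed as ligands, with Il1f10 among them, 7 of 8 had a region by either rule. Of the receptors 6 of 9 did, as did both genes classed as antagonists, Il1rn and Il1f5. Il1a and Il1b, the neighbouring genes of the inflammatory ligands IL-1α and IL-1β, together had 9 distinct regions. Il1a had 6, all nearest to it, of which the strongest lay 4108 bp upstream (chr2:129313812-129314580) with folds of 13.3 (40 fragments) and 23.0 (50 fragments). Its others had folds from 4.59 to 7.15 in replicate 1 and from 6.28 to 10.8 in replicate 2.

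Il1b had 5 regions, of which 2 were nearest to it. The strongest of these, 39463 bp upstream, had folds of 11.9 and 21.8, and the other, 2262 bp upstream at chr2:129373162-129373706, had 11.1 and 18.5 and lies in an intron of the noncoding antisense gene Il1bos. A region 10795 bp downstream of the Il1b TSS had 11.4 and 24.4 and was assigned to Il1bos by the nearest rule. The 2 remaining regions, between the genes, were also counted for Il1a. These had folds of 7.15 and 8.12 and of 6.18 and 10.8, below the other 3 in both replicates.

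On the same chromosome, the 6 genes from Il1f8 to Il1rn all had a region within 50 kb, from 6 distinct regions. The strongest, at chr2:24311348-24312306, had folds of 19.5 (59 fragments) and 25.3 (55 fragments). It was nearest to Il1f10, the IL-38 gene, and lay within 50 kb of Il1rn and Il1f5 as well. A neighbouring region 18744 bp upstream of a TSS of Il1rn had 17.4 and 14.8, higher in replicate 1.

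Il1rn encodes the IL-1 receptor antagonist, which blocks IL-1 signalling. It had 5 regions, 3 of them nearest to it, and 1 in a promoter, 67 bp upstream of a TSS (chr2:24344949-24345494), with folds of 9.75 (29 fragments) and 16.7 (36 fragments). A further region 298 bp downstream of another Il1rn TSS had 4.55 and 7.22. Il1f6, Il1f8 and Il1f9, the genes of the IL-36 agonists, had a single region between them, in an exon of Il1f9, with folds of 5.53 and 5.87.

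On chromosome 1, the IL-1 receptor cluster had regions at 5 of its 6 genes, 8 distinct regions in all. Il1r2, the decoy receptor for IL-1, had 1 intronic region 5295 bp downstream of a TSS (chr1:40091081-40091661), with folds of 12.02 (36 fragments) and 16.7 (36 fragments). Il1r1, the signalling receptor, had 4, the strongest in an intron with folds of 8.13 and 12.2. The promoter region of Il1r1, 762 bp upstream of its second TSS, was the weakest of the 87 by fold in replicate 1 (3.58, 10 fragments) and had 5.87 in replicate 2.

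Il1rl2, the IL-36 receptor gene, had a promoter region 84 bp upstream of its TSS (chr1:40324084-40324626), with folds of 7.15 (21 fragments) and 11.3 (24 fragments). Il18r1 and Il18rap, which encode the chains of the IL-18 receptor, had the same single region, with folds of 4.48 and 6.77. Il1rl1, the IL-33 receptor gene, was the exception in the cluster, with 3 peaks in replicate 2 only and folds from 5.87 to 5.96. Il1rap, the shared accessory chain, had 1 intronic region with 6.18 and 4.06.

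Ligands and receptors of the IL-1 family could be set side by side by pair. Il1a and Il1b had 6 and 5 regions and their receptor Il1r1 had 4. Il18 had 4 regions, all nearest to another gene (Pts, Tex12 or Sdhd), the strongest by the smaller fold with 10.1 and 13.5. A region in an intron of Il18 had 9.75 and 17.6, the higher fold in replicate 2. Each chain of the IL-18 receptor had 1 region. For the IL-36 ligands Il1f6, Il1f8 and Il1f9 and the receptor Il1rl2 the counts were 1, 1, 1 and 3. For IL-33, neither the ligand Il33 nor the receptor Il1rl1 had a shared region, and Il33 had 1 intronic peak in replicate 2 with a fold of 4.96.

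**Figure D5:**
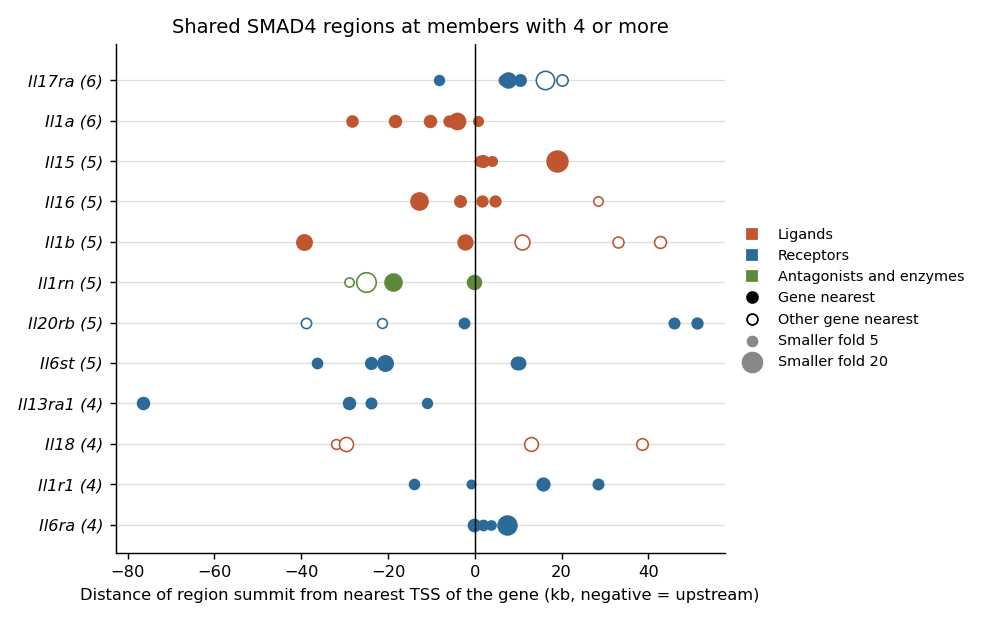
Distance of each shared region's summit from the closest TSS of the gene (x axis, kb, negative is upstream) for the 12 interleukin genes with 4 or more regions, whose number stands in brackets. Circle area follows the smaller fold of the replicates, filled circles have that gene as nearest, and open circles have another. All Il1a regions but 1 lie upstream, the Il15 regions all lie downstream, and the 4 Il18 regions have another gene as nearest.

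Among genes grouped with the gp130 chain, which Il6st encodes, 5 of 10 had a region by either rule, against 39.5% of all protein-coding genes. By the nearest rule 4 had one, against 21.5%. The group includes Il31 and Il31ra, whose receptor pairs with the OSMR chain and does not contain gp130. Il6ra, the specific IL-6 receptor chain, had 4, all nearest to it. The strongest was intronic, 7490 bp downstream of the TSS (chr3:89905169-89906056), with folds of 18.2 (55 fragments) and 30.2 (66 fragments). Its promoter region, 80 bp upstream of the TSS (chr3:89913083-89913421), had 7.48 (22 fragments) and 16.7 (36 fragments). Il6st itself had 5 regions, all nearest to it, the strongest 20753 bp upstream with folds of 12.02 and 18.1. The IL-6 ligand and both chains of its receptor therefore each had several regions.

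Il31ra, an IL-31 receptor chain gene beside Il6st, had 2 intronic regions. The stronger by the smaller fold, 50706 bp downstream of the TSS, had 10.4 and 15.8, and the other, at 2414 bp, had 6.50 and 21.2. Il11 had 1 region of 4.55 and 9.93 near Cox6b2. No shared region was counted for Il27, Il27ra, Il31, Il11ra1 or Il11ra2. The Il11ra1 and Il11ra2 genes are near-identical copies, and reads that fit both would be lost to the authors' mapping-quality filter, a part that was not tested.

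In the IL-17 family 5 of 11 genes had a region by either rule and 1 by the nearest rule. The shares of all protein-coding genes were 39.5% and 21.5%. Il17ra, the shared receptor chain, had 6, with the strongest in its intron 16261 bp downstream of the TSS (chr6:120479165-120479825), with folds of 17.2 (52 fragments) and 33.4 (73 fragments). The nearest TSS to it is that of Tmem121b. Another intronic region of Il17ra, at 7633 bp, had 11.4 and 13.1. Il17rc and Il17re had the same 2 regions, of which 1 is in the promoter of the AM marker Cidec, with folds of 6.18 and 8.12. Il17c and Il17f had 3 and 1 regions, each nearest to another gene, and Il17a, Il17b, Il17d, Il25, Il17rb and Il17rd had none.

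The IL-10 family divided by class, with regions by either rule at 5 of 6 receptors and 0 of 5 ligands. By the nearest rule 4 receptors had one. Over all protein-coding genes the shares were 39.5% by either rule and 21.5% by the nearest rule. Il10rb, the chain shared by several of these receptors, had 2. The first, 38909 bp upstream and nearest to Ifnar2, had folds of 12.7 (38 fragments) and 14.9 (32 fragments), and the second, 2948 bp upstream, had 10.1 and 7.94. Il10ra, the specific IL-10 receptor chain, had 2 weaker regions, with folds of 6.50 and 4.96 at 787 bp downstream of the TSS and 5.20 and 5.42 further upstream. Il20ra had 1 with 10.1 and 14.0, and Il20rb had 5, none above 5.85 in replicate 1 or 8.57 in replicate 2. Il22ra1 had 1, with 5.69 and 4.77.

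Of the IL-10 family ligands, Il10, Il19, Il20 and Il24 stand together on chromosome 1, and no peak of either list was counted for any of them or for Il22. The closest shared region to Il10 lay 64013 bp downstream, nearest to Mapkapk2, with folds of 3.90 and 6.32. These 4 neighbours are 1 locus and not separate observations. The decoy Il22ra2 had peaks in both lists that did not overlap.

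Genes of the common gamma chain group, with IL-13 and its receptors, had regions by either rule in 8 of 19 cases, near the background of 39.5%. By the nearest rule 6 had one, against 21.5% of all protein-coding genes. The receptors were Il4ra and Il21r, Il13ra1 and Il15ra. Il4ra, the IL-4 receptor chain, and its neighbour Il21r had the same 2 regions, with folds of 6.50 and 12.6 at 3332 bp downstream of the Il4ra TSS and 9.10 and 8.12 nearer to Il21r. Il13ra1 had 4, all upstream, with folds from 4.88 to 7.48 in replicate 1 and from 7.22 to 12.2 in replicate 2. The ligands were Il15 and Il2, the latter with 1 region of 7.80 and 11.3. The enzyme genes Il4i1 and Il4i1b had 1 region between them.

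No shared region was counted for Il2ra, Il2rb, Il2rg, Il7r, Il9r or Il13ra2, nor for Il4, Il13, Il7, Il9 and Il21. Il2rg encodes the common gamma chain itself, and its closest shared region lay 371681 bp away. Of the type 2 cytokines, Il4 had no peak in either list, whereas Il13 and Il5 had the same peak in replicate 2, in an intron of Rad50, with a fold of 4.19. In the group of the common beta chain, none of Il3, Il5, Il3ra and Il5ra had a shared region. Csf2rb and Csf2rb2, the genes of that beta chain, which bear other symbols, had 5 and 6 by either rule. By the nearest rule they had 3 and 0. They lie close together on chromosome 15, and a region can be counted for both.

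In the IL-12 family 2 of 6 genes had a region by either rule, against 39.5% of all protein-coding genes. By the nearest rule 1 had one, against 21.5%. Both genes with a region belong to IL-23. Besides Il23r, this was Il23a, the gene of the specific IL-23 subunit, with 1 region in its promoter 463 bp upstream of the TSS (chr10:128298190-128298826). Its folds were 8.13 (24 fragments) and 19.9 (43 fragments). Il12a and Il12b had no peak in either list, with the closest shared regions 238006 and 129478 bp away. Il16, the gene of a T cell attractant grouped with no family, had 5 regions. The strongest was 12781 bp upstream of a TSS and had folds of 14.95 (45 fragments) and 19.9 (43 fragments). Il34, which encodes a ligand of the macrophage receptor CSF1R, had none.

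Of the 42 genes without a shared region, 29 had no peak in either list, 10 had peaks of replicate 2 only and 1, Il7r, had a peak of replicate 1 only. Il22ra2 and Il27 had peaks in both lists without overlap. Those of the 10 genes were Il12rb1, Il12rb2, Il13, Il17rb, Il17rd, Il18bp, Il1rl1, Il27ra, Il33 and Il5. The peaks without a partner at these 13 genes had folds from 3.90 to 8.12 and from 9 to 17 fragments at the summit. Replicate 2 had 155 peaks at interleukin genes, of which 90 had a partner (58.1%, against 59.2% of all its peaks). Replicate 1 had 104, of which 88 had one (84.6%, against 69.4%).

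Near the 50 kb limit, the members just inside it were Il22ra1, with a closest region at 45065 bp, and Il1rap, at 44525 bp. Those just outside it were Il31, at 54911 bp (folds of 6.18 and 4.96), and Il5ra, at 56000 bp (3.63 and 6.67).

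Among 39 genes of interleukin signalling that do not bear the Il name, 21 (53.8%) had a shared region by either rule, against 39.5% of protein-coding genes, and 13 (33.3%) by the nearest rule, against 21.5%. Regions were found by either rule at 6 of 7 STAT genes, 4 of them by the nearest rule. The single Stat2 region is the promoter region of Il23a, and Stat5a and Stat5b had the same strongest region. By either rule regions were also found at 4 of 8 SOCS inhibitor genes, 3 of 8 genes of IL-1 receptor adaptors and kinases, 4 of 9 partner chains and ligands and 1 of 4 JAK genes. All 3 processing proteases, Casp1, Casp4 and Casp8, had one, and Casp1 and Casp4 shared theirs. By the smaller fold, the strongest were counted for Stat3 (folds of 19.5 and 28.0), Stat6 (16.6 and 20.8), Irak2 (16.3 and 31.1), Cish (12.7 and 16.7) and Csf2rb2 (11.3 and 12.6). Only that of Stat3 had the gene as its nearest. The others lay 38316, 39143, 13443 and 47873 bp from Stat6, Irak2, Cish and Csf2rb2, with another gene closer. Jak2 was the JAK gene with a region, while Jak1, Jak3 and Tyk2 had none.

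Short strings were searched on both strands in the 151 bases around each summit. The CEBP string TTGCNNAA was in 25 of the 87 interleukin regions (28.7%) and in 35.9% of all shared regions. The PU.1 string GAGGAAGT was in 7 (8.05%, against 6.37%), the ETS string CAGGAAGT in 8 (9.20%, against 4.61%) and the RUNX string TGTGGT in 25 (28.7%, against 21.7%). AP-1 (TGANTCA) was in 9 (10.3%, and in 1100 of the 10964), STAT (TTCNNNGAA) in 7 (8.05%, against 5.98%) and the kB-type string GGNNNTTCC in 7 (8.05%, against 8.20%). For SMAD itself, GTCTGG was in 6 (6.90%, against 8.64%) and the CAGA box CAGACA in 11 (12.6%, against 14.9%). A match is a description of the letters, the strings can occur in overlap, and counts of 6 to 25 regions allow no ordering against all regions. Mean GC content was 44.9% ± 6.83 (SD over 87 regions), against 43.9% ± 6.79 over all shared regions. The summit lay in soft-masked repeat sequence at 14 of the 87 regions (16.1%), against 10.4% of all.

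In the printed windows, that of Il23r held 2 CEBP matches, that of Il15 a CEBP and a RUNX match, and that between Il1f10 and Il1rn a CEBP match with a CAGA box at the summit. The Il6ra window held a RUNX match and a CAGA box, the Il17ra window the ETS string, and the Il6 window none of the strings. Promoter windows of Il1rl2, Il1rn and Il6ra are printed as well, chosen after their values were seen, since they lie within 100 bp of a TSS.

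Il1rl2, 84 bp upstream, chr1:40324430-40324580: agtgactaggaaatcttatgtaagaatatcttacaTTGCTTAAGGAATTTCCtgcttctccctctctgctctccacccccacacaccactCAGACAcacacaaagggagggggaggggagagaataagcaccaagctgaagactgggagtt
Il1rn, 67 bp upstream, chr2:24345149-24345299: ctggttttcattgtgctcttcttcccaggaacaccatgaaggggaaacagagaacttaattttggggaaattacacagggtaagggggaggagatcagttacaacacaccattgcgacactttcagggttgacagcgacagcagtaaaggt
Il6ra, 80 bp upstream, chr3:89913201-89913351: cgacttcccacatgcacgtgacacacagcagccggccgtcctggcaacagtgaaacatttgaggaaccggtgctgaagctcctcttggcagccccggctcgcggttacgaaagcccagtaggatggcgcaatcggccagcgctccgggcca

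The Il1rl2 promoter held a CEBP match, TTGCTTAA, followed directly by a kB-type match, GGAATTTCC, at 40324473 to 40324481, and a CAGA box. The promoter windows of Il1rn and Il6ra held none of the strings searched, which says only that these letters are not in those windows.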

How the data were processed

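HT-ChIPmentation of SMAD4 was performed in sorted alveolar macrophages, with 2 immunoprecipitated and 2 input libraries. Per the study's methods, adapters were trimmed (Cutadapt), reads were aligned to mm10 (Bowtie2), and duplicates and poorly mapped reads were removed by the authors. MACS3 was run with input as control at a q-value threshold of 0.05. Peaks were called in each sample, not on pooled samples. The deposited peak files give a fold ratio over control, a −log10 p-value and a −log10 q-value at the summit, a score derived from q that was not used, and the summit position. Read totals were not used here. Depth is given as fragments at the summit, solved as whole numbers from the authors' deposited fold and −log10 p-value (largest distance from a whole number 0.0014), and weak peaks rest on as few as 9 fragments in replicate 1 and 7 in replicate 2. Inputs have no values of their own here. Replicate numbers follow the order of the samples.

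Genes were taken from RefSeq on GRCm38, the assembly of mm10 (26089 genes with 45657 curated transcripts). The summit of a shared region is the mean of the strongest peak's summit in each list, and where several genes tied as nearest all were counted. Shares have exact (Clopper-Pearson) 95% binomial intervals. With a single condition no test between groups was possible. Functions for overlap, assignment and pileups were tested on simulated data. Members and gene lists were chosen with earlier results of these data known. Il1f5 was first classed as a ligand and was moved to the antagonists, since it is the older symbol of Il36rn. Named in full were the 15 genes with the strongest region by the smaller fold, genes with a region in their own promoter, and IL-1 family pairs, and of the signalling list the 5 strongest. Sequences are of mm10. Alternatives changed the replicate used, overlap, q, fold, window, TSS and gene classes. Analyses used Python 3.11.15, numpy 2.4.6, scipy 1.17.1 and matplotlib 3.10.9.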

Additional observations from a re-analysis of the deposited data

How the results depend on the processing

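Over 12 results and 15 alternatives, 113 of 130 values stayed within 1.5 times the reported count or, for the difference in share between receptors and ligands (13.1 points), within 2.89 points, the SD between the replicates. The windows of 5, 10 and 200 kb were chosen after seeing the data. The number of interleukin genes with a shared region within the window was 41 at 50 kb (49.4%). It was by construction 16 at 5 kb (19.3%), 21 at 10 kb (25.3%), 27 at 20 kb (32.5%) and 69 at 200 kb (83.1%). Over all protein-coding genes the share was 37.5% at 50 kb, and 9.99%, 14.6%, 22.0% and 71.1% at the other windows. Ligands (15) numbered 7, 8 and 33 at 5, 10 and 200 kb, and receptors (22) numbered 8 and 12 at 5 and 10 kb. The difference between receptors and ligands by either rule was 18.8 points with summits within 100 bp, 6.07 with a minimum fold of 5, 6.39 at 100 kb, 10.1 with antagonists counted as ligands and 17.1 at 5 kb, and it reversed to -13.6 at 200 kb. The value at 5 kb rests on the nearest rule, whose own difference was 17.1 points, since within 5 kb alone the shares were 18.9% of ligands and 19.5% of receptors. With the peaks of a single replicate it ranged from 15.3 to 19.4 points, and distinct regions at interleukin genes (87) from 104 with replicate 1 to 155 with replicate 2. No paired analysis was possible because the results come from no test between groups. Depth limits what can be said of genes without a peak, at which binding was not detected at this depth.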
